A study of Mus musculus with 2 samples.

Results

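Among 6 genes of the chitinase and resistin families measured in white fat of obese mice, Chil1 and Retnla read higher on the array of the Oma1-deficient mouse, and the other 4 were dim on both arrays. The members were Chil1, Chil3, Chil4, Chia1, Chit1 and Retnla, listed as chitinase, chitinase-like and resistin-like genes of myeloid cells and chosen with their values on these arrays known. All 6 were found, each with 1 probe set that carries its symbol alone, out of 19938 genes named in this way. White adipose tissue came from 24-week-old mice, all fed a high-fat diet for 20 weeks. One group was labelled a control mouse (Oma1_WT) and the other Oma1-deficient (Oma1_KO), with 1 Affymetrix Mouse Gene 1.0 ST array each. The labels give no strain, sex, fat depot or way of disrupting the gene, and do not say if an array held pooled RNA. With 1 array per group there is no test of any difference, and the spread between animals was not measured.

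Members of glycoside hydrolase family 18 share a barrel fold that holds chitin, the sugar polymer of insect shells and fungal walls. Chit1 (chitotriosidase) and Chia1 (acidic mammalian chitinase) cut chitin, whereas Chil1, Chil3 and Chil4 lack the catalytic residue and bind sugars without cutting them. Chil1, the mouse counterpart of human YKL-40, is secreted by macrophages, neutrophils and some epithelia and is used as a marker of inflammation and tissue remodelling. Chil3 (Ym1) and Retnla (RELM-alpha), a small cysteine-rich protein related to resistin, are textbook products of macrophages stimulated by the cytokines IL-4 and IL-13 through the transcription factor STAT6. Retn, which encodes resistin itself, is made by adipocytes in mice.

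Retnlg, a neighbour of Retnla, was dim on both arrays. The stretches of 250 bases before the annotated starts are shown for it and for Chil1 and Retnla, the 2 members that differed. They come from RefSeq, which held such a stretch for all 6 members, and read 5′ to 3′ towards the start. Capitals mark matches to the STAT6 motif TTCNNNNGAA or the C/EBP motif TTNNGNAA, on either strand. C/EBP factors are transcription factors of myeloid cells and adipocytes.
Chil1, GRCm38.p6 chr1:134181906-134182155, plus strand: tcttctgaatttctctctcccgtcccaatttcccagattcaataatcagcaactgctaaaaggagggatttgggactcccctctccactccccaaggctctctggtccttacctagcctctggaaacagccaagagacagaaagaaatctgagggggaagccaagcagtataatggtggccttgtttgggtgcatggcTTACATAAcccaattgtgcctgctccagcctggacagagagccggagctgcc
Retnla, GRCm38.p6 chr16:48842359-48842608, plus strand: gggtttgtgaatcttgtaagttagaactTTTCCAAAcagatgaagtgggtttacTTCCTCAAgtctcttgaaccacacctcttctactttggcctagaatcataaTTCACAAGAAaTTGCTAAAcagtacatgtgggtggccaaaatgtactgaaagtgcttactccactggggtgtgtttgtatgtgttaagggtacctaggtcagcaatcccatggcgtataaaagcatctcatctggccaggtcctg
Retnlg, GRCm38.p6 chr16:48872358-48872607, plus strand: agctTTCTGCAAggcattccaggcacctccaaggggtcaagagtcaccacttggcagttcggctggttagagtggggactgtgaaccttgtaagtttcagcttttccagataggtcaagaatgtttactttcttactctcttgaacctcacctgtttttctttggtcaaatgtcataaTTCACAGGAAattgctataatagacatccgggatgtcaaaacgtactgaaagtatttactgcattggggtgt

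The STAT6 motif stood once in the Retnla stretch, as ttcacaagaa from 145 to 136 bases before the start, and was followed by a C/EBP match, ttgctaaa, from 134 to 127 bases before it. Retnla held 3 C/EBP matches in all. One of them, ttcctcaa, overlapped the single match to the PU.1 motif GAGGAA, which was searched on both strands like the others. A TATA box, TATAAA, lay 30 to 25 bases before the start. Chil1 held 1 C/EBP match, ttacataa, 52 to 45 bases before the start, and 0 matches to the other 3 motifs. Of 32851 RefSeq promoter stretches of the same length, 5.85% held the STAT6 motif, 36.8% the C/EBP motif, 23.3% the PU.1 motif and 12.4% the TATA motif. The match in Retnlg, ttcacaggaa, lay 72 to 63 bases before its start, and its stretch was 78.9% identical to that of Retnla over 175 aligned bases. Retnla thus had a difference and held the STAT6 motif, and Chil1 had a difference and no such letters in this window. Retnlg held the motif and read 49 on both arrays, but such a dim reading cannot show whether it differed. No link between the motif and the differences was tested. A match describes letters and does not show binding.

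Chil3 and Chil4 lie close together on chromosome 3 and are near copies. Their stretches are shown for their likeness.
Chil3, GRCm38.p6 chr3:106167565-106167814, minus strand: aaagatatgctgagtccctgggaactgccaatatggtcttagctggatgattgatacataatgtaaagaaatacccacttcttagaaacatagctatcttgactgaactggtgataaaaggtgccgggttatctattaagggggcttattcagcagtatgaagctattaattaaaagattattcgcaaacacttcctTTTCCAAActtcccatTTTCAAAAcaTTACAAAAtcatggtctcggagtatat
Chil4, GRCm38.p6 chr3:106219480-106219729, minus strand: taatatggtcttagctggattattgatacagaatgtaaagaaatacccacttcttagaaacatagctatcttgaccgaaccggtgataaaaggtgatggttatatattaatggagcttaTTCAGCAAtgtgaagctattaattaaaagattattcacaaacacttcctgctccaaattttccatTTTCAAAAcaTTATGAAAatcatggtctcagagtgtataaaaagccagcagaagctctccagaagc

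These 2 stretches were identical at 201 of 221 aligned bases (91.0%). Each held 3 C/EBP matches and 0 STAT6 matches. These stretches lie before the start, and the transcripts and probes themselves were not compared. Where the transcripts are as alike, a probe set of either gene may take signal from the other. Whether the readings of Chil3 and Chil4 are specific to each gene was not tested.

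Values are the deposited linear intensities, and a difference is log2(intensity + 1) on the Oma1-deficient array minus that on the control array, which understates the change of dim genes. Intensities of different probe sets are not compared as levels of expression. Genes were ranked and counted if their mean over both arrays reached 83, the median intensity over 35512 probe sets, as 11399 genes did. Of these, 4172 were higher on the deficient array, 7100 lower and 127 equal. No detection call was used. As a guide to readings without expression, 11 markers of lung and stomach epithelium read from 15 to 87 over both arrays. The Oma1 probe set read 187 on the control and 155 on the deficient array, which does not check the genotype since the disrupted part of the gene is not given. The tissue label was checked on 7 adipocyte markers, which read from 3721 to 10771.

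Chil1 read 81 on the control array and 324 on the Oma1-deficient array. The control reading lay inside the range of the lung and stomach markers, and the deficient reading above it. The difference was 1.99, or 3.96-fold, which ranked 2 of the 11399 genes from the top. Chil1 passed the intensity filter through its deficient reading alone, as its control reading was under 83, and it therefore had to differ to be ranked. Among the 31 genes at least 2-fold higher, 6 had a control reading under 83. When readings under 87 were raised to 87, a step chosen after seeing the data, the difference was 1.88, and with a pseudocount of 16 it was 1.81.

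Retnla read 1491 and 2848 on the control and deficient arrays. Both readings were far above the range of the lung and stomach markers, so this difference does not rest on a dim value. It was 0.93, or 1.91-fold, at rank 41. Over 545 genes with 2 probe sets each, paired probe sets disagreed by an SD of 0.17 log2 units, which reflects probes on the same RNA and not mice. Of 724 genes with a mean within 0.5 log2 units of that of Retnla, 2 differed by as much or more in this direction, Retnla itself and Alb, which encodes albumin. Retnla was chosen with its values known, so nothing is read from this count.

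The chitinase Chit1 read 19 on both arrays, and the chitinase Chia1 read 29 and 30. Chil3 read 29 on the control and 25 on the deficient array, a difference of -0.21. Chil4 read 13 and 15, a difference of 0.19, which amounts to 2 intensity units of a value deposited as a whole number. These 4 genes were below the filter, and none of their readings exceeded those of the lung and stomach markers. Of the 8539 genes below the filter, 30.1% differed in either direction by at least as much as Chil3 and 33.3% by at least as much as Chil4. The middle 95% of them lay between -0.38 and 0.47. No transcript level can be read from these 4 probe sets, and whether the genes differed was not detectable here.

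**Figure D1:**
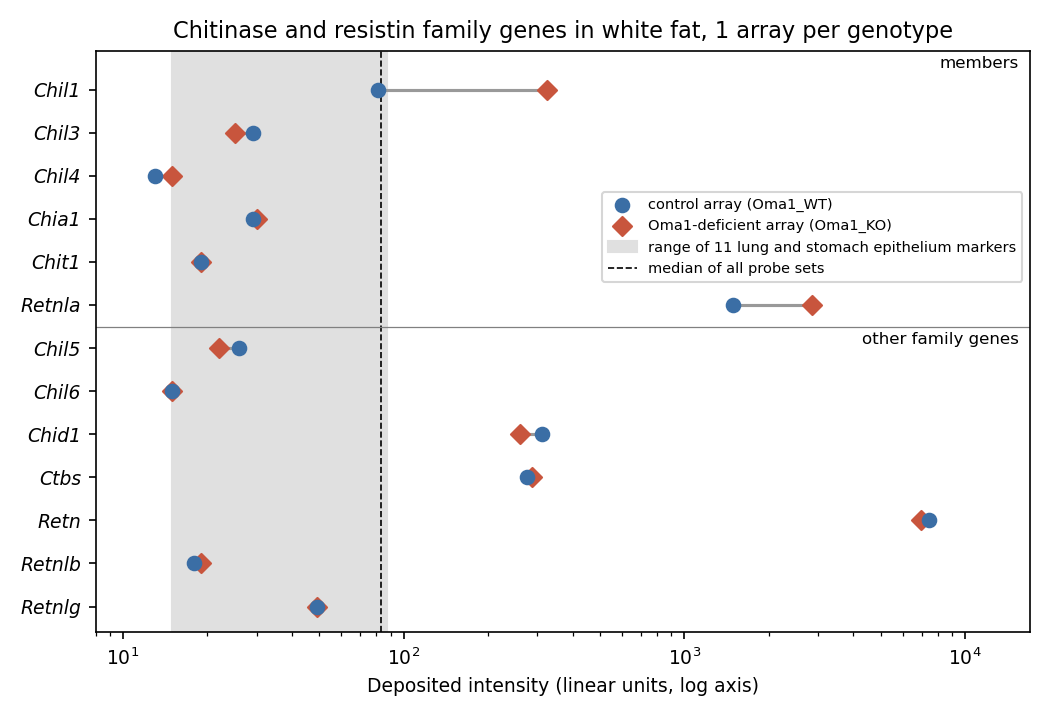
Deposited intensity of the 6 members and 7 other genes of their families on the control array (circles) and the Oma1-deficient array (diamonds), on a log axis; the grey band is the range of 11 lung and stomach epithelium markers, 15 to 87, and the dashed line the median of all probe sets, 83. Chil1 (81 and 324) leaves the band on the deficient array and Retnla (1491 and 2848) lies above it on both, while Chil3, Chil4, Chia1 and Chit1 read 30 or less.

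Of the 6 members, 1 was at least 2-fold higher, against 0.272% of the 11399 genes, and 2 were at least 1.5-fold higher, against 1.25%. In the other direction 0 members passed either size, against 0.246% at least 2-fold lower and 1.75% at least 1.5-fold lower. The shares cover genes above the filter, whereas 4 of the 6 members were below it. The members were also chosen from these values, so nothing is read from these shares. The 2-fold background was 31 genes higher and 28 lower, and became 39 and 18 after centring on the median. The 1.5-fold background was 143 higher and 199 lower, and became 170 and 147 after quantile normalisation. The balance at 1.5-fold thus turned with the scaling, whereas at 2-fold more genes were higher under quantile normalisation, loess and centring alike.

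**Figure D2:**
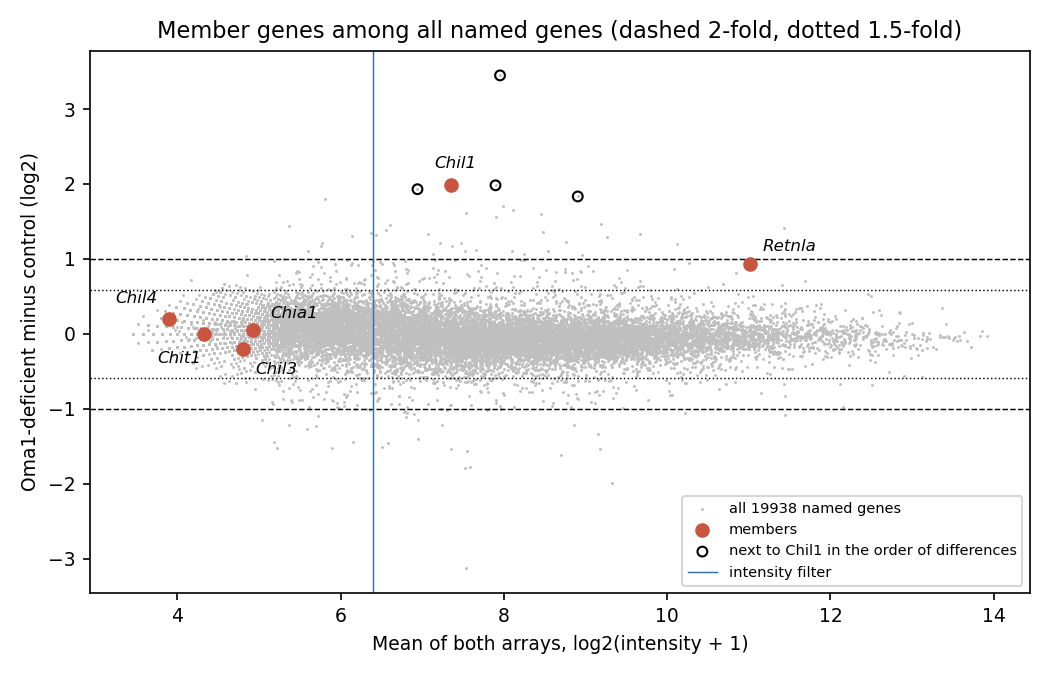
Difference between the Oma1-deficient and control arrays (log2, vertical) against the mean of both arrays (log2 of intensity + 1, horizontal) for all 19938 named genes (grey), the 6 members (filled) and the 4 genes next to Chil1 in the order of differences (open); horizontal lines mark 2-fold and 1.5-fold and the vertical line the filter. Chil1 stands at 1.99 and Retnla at 0.93, and the other 4 members lie left of the filter near 0.

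In the order of differences the only gene above Chil1 was Igkv4-91, an immunoglobulin kappa variable segment, which read 74 and 818. The 3 named genes next below it were Mup3, a major urinary protein made by the liver, with 119 and 473, the microRNA gene Mir680-2, with 62 and 239, and Apoa1, an apolipoprotein of liver and gut, with 253 and 904. Their differences were 1.98, 1.93 and 1.83. Likeness here is a single difference between 2 arrays. Mup and immunoglobulin genes have many near copies, and the identity of those probe sets is uncertain.

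Of the remaining genes of both families, those above the filter, Chid1, Ctbs and Retn, differed little. Of the other chitinase family genes, 4 of 5 could be measured, since Ovgp1 shares its probe set with another symbol. Chid1, a chitinase domain protein, read 312 and 260 (-0.26), and Ctbs, the lysosomal chitobiase, read 276 and 286 (0.05). Chil5 read 26 and 22 and Chil6 read 15 on both arrays, inside the range of the lung and stomach markers. Retn read 7466 and 6966, a difference of -0.10. Retnlb, a resistin-like gene of the gut, read 18 and 19, and Retnlg, a resistin-like gene of bone marrow and neutrophils, read 49 on both. Of these 7 relatives 0 reached 1.5-fold in either direction, and their differences ran from -0.26 to 0.07. Of the 11399 genes, 1.25% were at least 1.5-fold higher and 1.75% lower, so nothing is read from that 0. Chil5, Chil6, Retnlb and Retnlg were below the filter, so whether they differed was not detectable here. Within the resistin family Retnla was 1.91-fold higher and Retn, the adipocyte hormone, 1.07-fold lower.

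Partners that bind these secreted proteins were fixed as a list of 7 genes. Of these 5 were higher and 2 lower, with a median of 0.10, beside -0.06 over the 11399 genes. Tmem219, part of a Chil1 receptor, read 323 and 360 (0.16), and Cd44, a further binding partner, 468 and 503 (0.10). Ager, the receptor for advanced glycation end products, read 84 and 93 (0.15), and Tlr4, the endotoxin receptor to which resistin also binds, 355 and 324 (-0.13). The gene past 1.5-fold in this list was Il13ra2, a decoy receptor for IL-13 that also binds Chil1, with 84 and 44 (-0.92). It was below the filter, was singled out after its values were seen, and read inside the range of the lung and stomach markers on both arrays.

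Among genes of the cytokine pathway that induces Chil3 and Retnla in macrophages, those above the filter showed small differences in RNA. The activity of the pathway was not measured. Of 16 listed genes of IL-4, IL-13 and IL-33 signalling 12 were measured, 7 higher and 5 lower, with a median of 0.08 and 0 past 1.5-fold. Nothing is read from that 0, as 1.25% of the 11399 genes were at least 1.5-fold higher and 1.75% lower. Il4ra, the shared receptor chain for IL-4 and IL-13, read 713 and 799 (0.16), and the receptor kinases Jak1 and Tyk2 read 2483 and 2683 (0.11) and 269 and 305 (0.18). Stat6 read 1424 and 1405 (-0.02), and Il33, an alarm cytokine of stromal cells, 178 and 188 (0.08). The cytokine genes Il4, Il5 and Il13 read 33 and 29, 22 and 20, and 71 and 88. They were below the filter, so the arrays cannot show whether these cytokines differed.

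Other genes of alternative macrophage activation mostly differed less than Retnla, which was chosen with its values known. Of 19 measured, 12 were higher and 7 lower, with a median of 0.07, and only Alox15 had a higher difference than Retnla. Alox15, a lipoxygenase induced by IL-4, read 125 and 269, a difference of 1.10. Cish, a feedback inhibitor of cytokine signalling, went the other way, with 140 and 78 (-0.84). The lectin Mgl2 read 452 and 543 (0.26) and the transglutaminase Tgm2 2728 and 3273 (0.26). Arg1, the arginase most often measured beside Chil3 and Retnla, read 79 and 93 (0.23), and Mrc1, the mannose receptor, 1668 and 1853 (0.15). Alox15 and Cish were the 2 genes of the list past 1.5-fold, in opposite directions.

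**Figure D3:**
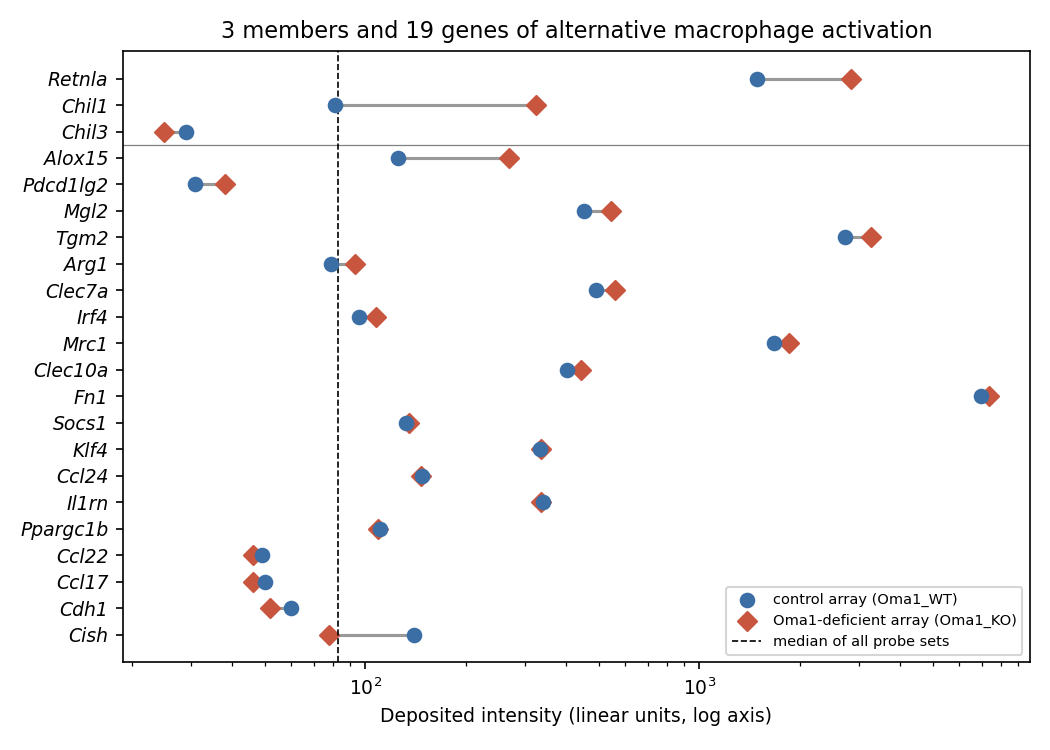
Deposited intensity on the control (circles) and Oma1-deficient (diamonds) arrays, log axis, for Retnla, Chil1 and Chil3 and for 19 genes of alternative macrophage activation ordered by their difference; the dashed line is the median of all probe sets. Retnla, Chil1 and Alox15 (125 and 269) are wide pairs with the deficient array higher, Cish (140 and 78) is a wide pair with it lower, and most others nearly coincide.

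Genes of classical macrophage activation lay on both sides of 0, with 6 of 11 higher, 5 lower and a median of 0.15. Nos2, the inducible nitric oxide synthase, read 139 and 101 (-0.46) and the interferon-induced chemokine Cxcl9 1137 and 896 (-0.34). The cytokine Tnf read 106 and 139 (0.39) and the costimulatory protein Cd86 147 and 192 (0.38). The 7 of them above the filter had a median of -0.15, so the sign of the list turned with its dim members. The differences of the 11 were all smaller than that of Retnla, a member chosen from these values.

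Macrophages are the usual source of Retnla and a source of Chil1. Of 14 macrophage markers 12 were higher and 2 lower, of which 1 passed 1.5-fold upward and 0 downward, with a median of 0.31, and their summed intensity was 32827 on the control and 38507 on the deficient array, a log2 ratio of 0.23. Fcgr1, an immunoglobulin receptor, read 308 and 503 (0.71), Aif1, a calcium-binding protein of macrophages, 101 and 147 (0.54), Cd14, a coreceptor for endotoxin, 298 and 400 (0.42), and Mertk, a receptor for dying cells, 664 and 470 (-0.50). Cd68, a lysosomal protein of macrophages, was nearly equal, with 5616 and 5626. The differences of Chil1 and Retnla were above those of all 14. Both members were chosen from these values, so nothing is read from this order. In tissue RNA, more cells of a type and more RNA per cell cannot be told apart, and the part of macrophage content in the 2 differences was not tested.

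Macrophage subsets differed less as lists. Resident macrophage markers had a median of -0.05, with 3 of 7 higher and a summed intensity of 5425 and 5359. Vsig4, a complement receptor of resident macrophages, read 384 and 569 (0.57), and Cd163, the haemoglobin scavenger receptor, 243 and 185 (-0.39). Lyve1, a hyaluronan receptor, and Cd209f, a lectin, were also lower, with 929 and 737 (-0.33) and 434 and 361 (-0.27). Lipid-associated macrophage markers had a median of 0.04, with 7 of 10 higher and sums of 24486 and 25640, and Trem2, a lipid receptor, read 1553 and 2241 (0.53). Acp5, an acid phosphatase, was lower with 2833 and 2388 (-0.25), while the proton pump subunit Atp6v0d2 read 2554 and 3021 (0.24) and the tetraspanin Cd9 911 and 1020 (0.16). Monocyte markers also had a median of 0.04, with 4 of 6 higher and sums of 3068 and 3208. The difference largest in size was that of Ms4a4c, a membrane protein, which was lower with 99 and 75 (-0.40). Ccr2, the receptor for the chemokine Ccl2, read 360 and 464 (0.37), the calcium-binding protein S100a4 392 and 442 (0.17) and the matrix proteoglycan Vcan 480 and 451 (-0.09).

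Granulocytes are other known sources of these proteins. Of 12 neutrophil markers 10 were higher, with a median of 0.09 and sums of 2439 and 3224, but only 3 were above the filter. The 8539 genes below the filter had a median of 0.07, close to that of this list, and 60.7% of them were higher. Without Lcn2 the neutrophil sums were 655 and 697. The 3 above the filter were Lcn2, a siderophore-binding protein that adipocytes also make, with 1784 and 2527 (0.50), Csf3r, the receptor for granulocyte colony-stimulating factor, with 107 and 144 (0.43), and S100a8, a calcium-binding protein, with 165 and 134 (-0.30). The defining neutrophil genes Ly6g, Camp and Mmp8 read 26 and 27, 43 and 45, and 21 and 22, inside the range of the lung and stomach markers. All 7 eosinophil markers were below the filter and read from 18 to 80, with sums of 256 and 285. Eosinophils are a main source of IL-4 in fat, and their content cannot be read from these arrays.

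Mast cell and liver markers held larger single differences than macrophage markers. Of 10 mast cell markers 7 were higher and 4 of them at least 1.5-fold higher, with a median of 0.17 and sums of 1347 and 2017. The proteases Cpa3, with 282 and 663 (1.23), and Mcpt4, with 215 and 426 (0.98), had higher differences than Retnla. Tpsb2, a tryptase, read 202 and 308 (0.61). Kit, the stem cell factor receptor of mast cells, went the other way, with 212 and 187 (-0.18), as did the transcription factor Gata2, with 176 and 156 (-0.17), and Hdc, which makes histamine, read 105 and 108 (0.04). The chymase Cma1 (42 and 67, the fourth past 1.5-fold higher) and the tryptase Tpsab1 (53 and 34, the only marker past 1.5-fold lower) were dim and were named after their values were seen. Of 8 liver markers 7 were higher and 5 at least 1.5-fold higher, with a median of 0.87 and sums of 3583 and 8125. Alb read 1692 and 4523 (1.42), Apoa2 345 and 715 (1.05) and Ttr, the thyroxine carrier, 381 and 717 (0.91). Alb alone rose by 2831 units, a large part of the rise in the sum. The smallest rise was that of Cps1, with 127 and 161 (0.34), and Tat was lower, with 181 and 146 (-0.31). Apoa1, one of them, also stood next to Chil1 in the order of differences. The part of mast cells and liver cells in the differences of Chil1 and Retnla was not tested.

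Markers of epithelia that make chitinases were mostly below the filter. Of 7 stomach markers and 4 lung markers 0 were above the filter. Of 5 salivary gland markers only Amy1, an amylase also made by liver, passed, with 552 and 516. Of 7 glandular epithelium markers 6 were lower, with a median of -0.20 and sums of 724 and 560, but only 2 were above the filter. These were the keratins Krt8 and Krt18, with 312 and 209 (-0.58) and 176 and 137 (-0.36). The median was the value of the dim Cdh1, with 60 and 52. The list shares Cdh1 with the alternative activation list. Of 7 adipocyte markers 6 were lower, with a median of -0.12 and sums of 47711 and 42616. Most genes above the filter were also lower, 7100 of 11399, with a median of -0.06. Centring on the median put the adipocyte median at -0.06. Adipoq, which encodes adiponectin, read 6832 and 5255 (-0.38). The lipid droplet protein Cidec read 10771 and 9316 (-0.21), the fatty acid binding protein Fabp4 7685 and 6813 (-0.17) and Pparg, the master regulator of adipocytes, 4050 and 3721 (-0.12).

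**Figure D4:**
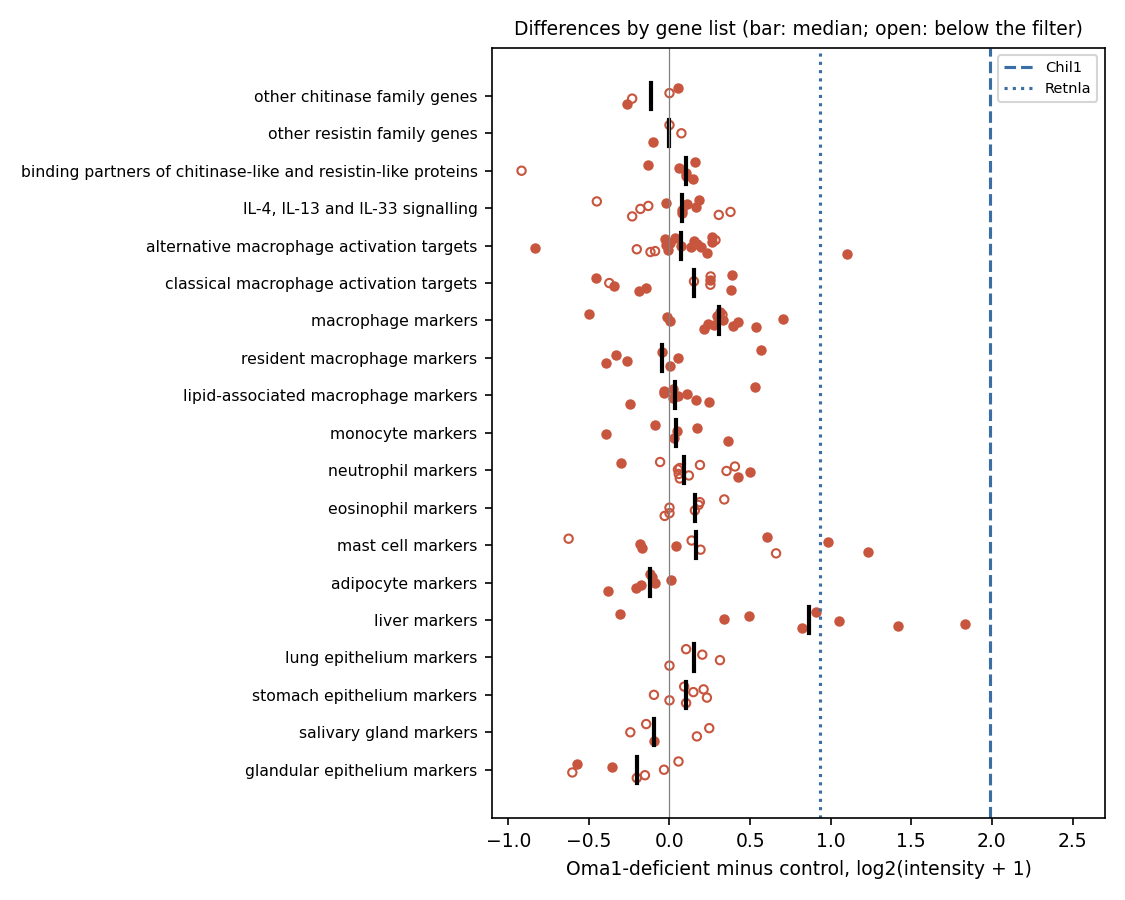
Difference between the Oma1-deficient and control arrays (log2 of intensity + 1) for each measured gene of 19 gene lists, filled where the gene passed the intensity filter and open where it did not, with the list median as a black bar; vertical lines mark Chil1 (1.99, dashed) and Retnla (0.93, dotted). Macrophage markers centre on 0.31 and liver markers on 0.87, and only Alox15, 2 mast cell markers and 3 liver markers lie to the right of Retnla.

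Across other ways of processing, the difference of Retnla ran from 0.93 to 0.99 and that of Chil1 from 1.81 to 2.05. Retnla stayed just under 2-fold in all 6, at most 1.99-fold after centring on the median. Not all 6 were checks, however. The brightest probe set could move no member, as each has 1 probe set. Raising dim readings could not move Retnla, as neither of its readings was dim. The small differences of Chil3 and Chil4 kept their signs under 5 of the 6 ways, of which the brightest probe set could not change them. Those of Chia1 and Chit1 lay on either side of 0 depending on the scaling.

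**Figure D5:**
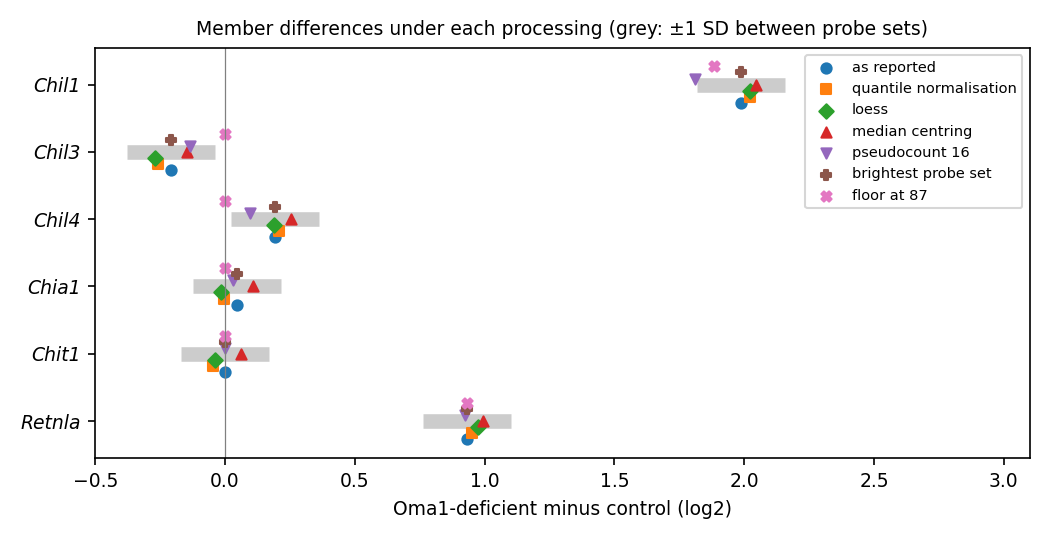
Difference of each member (log2, Oma1-deficient minus control) as reported and under 6 other ways of processing, with a grey bar of 1 SD between probe sets of one gene, 0.17, on either side of the reported value. Retnla stays between 0.93 and 0.99 and Chil1 between 1.81 and 2.05, and raising dim readings to 87 sets the other 4 members to 0.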

How the data were processed

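Gene expression was measured on 2 arrays, 1 per group, grouped by the genotype in the labels. RNA was extracted with Trizol and labelled with biotin, per the labels' protocols. The authors deposited 1 linear intensity per probe set and array, rounded to whole numbers. For background correction, probe set summary, scaling and software, the sources used here give nothing. The number of arrays limits the precision.

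Names came from GEO's annotation of the platform. Those with 1 symbol (21789 of 35512) were used, and those with several (1621) or none (12102) were left out. Intensities were taken to log2 after a pseudocount of 1 and averaged over a gene's probe sets. No further scaling was applied. The filter, the fixed sizes of 2-fold and 1.5-fold and the gene lists are described with the results. Named genes were all family genes, Oma1, up to 4 genes above the filter per list by size of difference, and 3 genes on either side of a member past 2-fold, without automatic locus names. Mrc1, Arg1, Stat6, Cd68, Gata2, Hdc, the cytokine genes and the dim neutrophil genes were added by role. Cps1 and Tat were added as the lowest differences of the liver list. The members and lists were chosen with earlier results of these data known. Calls and scalings were tested on simulated data. A planned comparison of protein sequences was not made. Python 3.11.15, numpy 2.4.6, pandas 2.3.3, statsmodels 0.14.6 and matplotlib 3.10.9 were used.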

Additional observations from a re-analysis of the deposited data

How the results depend on the processing

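No paired analysis was possible because each group has 1 array, and for the same reason no array could be left out. The alternatives were quantile normalisation, loess, centring on the median, a pseudocount of 16, the brightest probe set and other filters; raising dim readings to 87 was added after seeing the data. A value counted as moved if it shifted by over 0.17, the SD between probe sets, and a count if it changed by over 1.5 times. Of 36 member values 3 moved. Centring could move no member value or list median, as it shifts every difference by 0.06. The brightest probe set could move no member, as each has 1 probe set, like nearly all listed genes. Raising dim readings to 87 could not move Retnla, which read 1491 and 2848. Chil1 went to 1.81 with a pseudocount of 16, which shrinks differences of dim genes by construction, and Chil3 and Chil4 went to 0 when dim readings were raised, as both arrays then read the same. Of 126 list medians 3 moved. With members above the filter alone the classical activation median was -0.15 and the neutrophil median 0.43, and raising dim readings set the glandular epithelium median to 0. The 2-fold counts were 11 higher and 7 lower with the filter at the upper quartile. The lower count was 18 after centring and 17 with a pseudocount of 16. The 1.5-fold counts were 54 higher and 81 lower under that filter, and 229 genes were higher with no filter. Lists with under 3 genes above the filter had no value for that choice. No value past 1.5-fold changed sign. Rounding and the lack of detection calls limit what can be read from the 4 dim members.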
